A study of Mus musculus with 17 samples.

Results

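Tight junctions seal the cleft between neighbouring epithelial cells, and the genes described here encode 10 of their components: the claudins Cldn2, Cldn3, Cldn4, Cldn7, Cldn15 and Cldn23, and the proteins Ocln, Marveld2, F11r and Tjp1. They were taken as a family by name, from a table of 53278 gene symbols. Earlier results of these data were known when they were chosen. All 10 passed the filter on low values, which left 14173 genes for testing.

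RNA came from small intestinal epithelial cells of Igha -/+ mice (strain label C57BL/6), which carry 1 disrupted and 1 intact copy of the gene for the IgA heavy chain. The mice were nursed either by a C57BL/6 dam, here the B6 dam, or by an IgA -/- dam, here the IgA-null dam, so that the comparison of the dams asks what IgA from the mother changes. Cells were taken on day of life 14, 24 or 42, and each of the 6 groups had 3 libraries, except the B6 dam at day 24, which had 2. Cells positive for EpCAM and negative for CD45 and Ter119 were sorted, frozen as pellets and thawed for extraction after every group had been collected. The mice were born in a specific-pathogen-free colony from crosses of C57BL/6 with IgA-/- mice, and the labels do not say which shared a litter or a dam. The p-values therefore measure the spread between these samples, which may be partly technical.

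In a tight junction, claudins on facing cells pair across the gap and set which ions and small molecules pass between the cells. Cldn2 and Cldn15 form pores for cations and water and supply the sodium that nutrient uptake in the small intestine draws on, while Cldn3 and Cldn4 are counted among the sealing claudins. Cldn7 is abundant in the gut and lies largely on the basolateral side, and Cldn23 is a claudin of differentiated epithelium. Ocln (occludin) and Marveld2 (tricellulin) are related four-span membrane proteins, Marveld2 sitting where the corners of neighbouring cells meet. F11r is the junctional adhesion molecule A, and Tjp1 is the scaffold that ties these membrane proteins to actin.

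The genes lie on 7 chromosomes in GRCm38. Cldn3 (chr5:134986214-134987472, plus strand) and Cldn4 (chr5:134945119-134946934, minus strand) are close together, and Cldn15 (chr5:136966616-136975858, plus strand) is further along the same chromosome. Ocln (chr13:100496507-100552718) and Marveld2 (chr13:100595957-100616971) also lie near each other, both on the minus strand. Cldn2 is at chrX:139800828-139811386 (plus), Cldn7 at chr11:69964779-69967885 (plus), Cldn23 at chr8:35824712-35826559 (minus), Tjp1 at chr7:65296165-65527781 (minus) and F11r at chr1:171437535-171464603 (plus). The last exon of Cldn3 overlaps a gene on the opposite strand, and whether the counting used strand is not given in the sources used here, so a part of its reads could belong to that gene.

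Cldn2, Cldn3 and Cldn15 were the members whose level changed with age under both dams, and the bases before their start sites are shown for that reason. The sequences are RefSeq's for GRCm38, on the plus strand, at chrX:139800558-139800807, chr5:134985964-134986213 and chr5:136967619-136967843. The first and second end at the base before the start site. The Cldn15 stretch is 225 bases, stops short of an annotated exon that precedes the RefSeq start at 136967869, and lies within the longer gene given above. Capitals mark matches to 1 of 5 motifs searched on both strands.
Cldn2: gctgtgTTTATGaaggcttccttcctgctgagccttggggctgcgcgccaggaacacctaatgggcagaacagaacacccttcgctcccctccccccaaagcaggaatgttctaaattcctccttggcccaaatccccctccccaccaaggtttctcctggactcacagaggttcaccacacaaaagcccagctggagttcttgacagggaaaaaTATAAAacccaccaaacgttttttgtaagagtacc
Cldn3: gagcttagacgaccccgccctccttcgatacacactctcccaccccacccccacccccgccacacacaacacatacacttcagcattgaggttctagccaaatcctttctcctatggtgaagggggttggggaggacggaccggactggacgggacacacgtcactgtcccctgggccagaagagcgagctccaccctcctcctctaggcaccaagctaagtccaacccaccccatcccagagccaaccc
Cldn15: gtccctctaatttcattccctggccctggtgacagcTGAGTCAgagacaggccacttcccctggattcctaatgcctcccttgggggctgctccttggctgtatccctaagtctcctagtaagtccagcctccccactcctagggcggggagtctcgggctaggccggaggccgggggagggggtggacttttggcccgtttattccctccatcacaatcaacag

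The motifs were the core promoter box TATAAA, the site TTTATG of the intestinal CDX factors, the AP-1 site TGANTCA, the site CAAAGTCCA of the HNF4 factors and the site AGATAA of the GATA factors. Cldn2 held TTTATG at 244 to 239 bases and TATAAA at 35 to 30 bases before its start. Cldn15 held 1 AP-1 match, TGAGTCA, at 214 to 208 bases before its start, and Cldn3 held none of the 5. Of the other members, Cldn4 held 2 AP-1 matches and F11r 1, and Marveld2 windows 1 and 2 each held TATAAA. The windows of Cldn7, Ocln and Tjp1 held none. Of 32851 windows of 250 bases before a start site, 12.4% held TATAAA, 10.8% TTTATG, 6.75% the AP-1 letters, 0.384% CAAAGTCCA and 9.99% AGATAA. These are matches of letters only. A window was found for 9 of the 10 members.

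Values below are scaled TPM: the deposited TPM (transcript abundance per gene length, relative to the library total) divided by a size factor for each library. Size factors ran from 0.480 to 1.84, and a small RNA model, Gm23935, took 40.2% to 61.9% of the deposited TPM. Without the division, 15066 genes passed the filter. The median log2 fold change over them was 0.33, -0.38 and 0.03 between the dams at days 14, 24 and 42. It was -0.29 and -0.17 from day 14 to days 24 and 42 under the B6 dam, and -1.02 and -0.48 under the IgA-null dam (0.12 and 0.53 from day 24 to 42). The split of called genes into higher and lower then went from 256 and 176 to 1253 and 54 between the dams at day 14. The step from day 14 to 24 took it from 1213 and 848 to 244 and 1053 under the B6 dam, and from 1292 and 1102 to 130 and 12497 under the IgA-null dam. For day 14 to 42 the split went from 1049 and 945 to 419 and 954, and from 1243 and 1107 to 266 and 5859, respectively, and from day 24 to 42 under the IgA-null dam from 222 and 195 to 7304 and 130. The recovered depth was 8477209 to 18305335 reads per library, and 72 (Cldn23) to 4889 (Cldn7) reads stood behind a member's value.

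Markers of the sort were checked first. Epcam lay between 244 and 549 scaled TPM, with means of 387, 454 and 409 at days 14, 24 and 42 under the B6 dam. Its means under the IgA-null dam were 262, 320 and 394. Ptprc (CD45) reached at most 0.732, and 11 leukocyte markers summed to at most 9.21. A list of 9 fibroblast and smooth muscle markers summed to at most 0.576. The 2 B6 dam libraries of day 24 stood apart from each other. Summed over 12 markers of adult enterocytes, replicate 1 held 426 and replicate 2 held 4749 scaled TPM, and over 8 markers of the proximal small intestine 522 and 3604. In the B6 dam group of day 42, replicate 1 (1896) likewise exceeded the others (275 and 330) in the adult enterocyte sum. In IgA-null dam replicate 2 of day 24, erythroid markers summed to 66.7, and to at most 3.21 in every other library. Dates in the labels differ between the dams at days 14 and 24, and between the ages within a dam except days 24 and 42 of the IgA-null dam. Where they differ, whatever the date marks and the comparison cannot be told apart.

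Cldn7 and Cldn3 were the most abundant members. Over all 17 libraries Cldn7 had a median of 99.0 scaled TPM (lowest 86.4, highest 152) and Cldn3 of 95.5 (39.6 to 131). Cldn15 followed at 36.0 (16.6 to 70.0), Cldn2 at 21.9 (14.96 to 42.1), Ocln at 21.3 (16.03 to 25.9) and F11r at 19.8 (12.5 to 41.3). Tjp1 had a median of 12.5 (10.2 to 15.5), Cldn4 of 5.71 (4.04 to 12.1), Marveld2 of 5.06 (3.48 to 6.39) and Cldn23 of 4.15 (3.06 to 6.43). TPM is a level per transcript length, so these may be set side by side. Cldn15 varied most between libraries, its highest value being 4.21 times its lowest, and Tjp1 least, at 1.52 times.

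The order of the levels was not the same at each age. At day 14 under the B6 dam it ran Cldn7 (98.7), Cldn3 (49.1), Cldn2 (40.5), Ocln (20.8), Cldn15 (19.0), F11r (16.3), Tjp1 (11.7), Cldn4 (7.33), Marveld2 (5.70) and Cldn23 (4.93), as group means. The libraries of Cldn3 and Cldn2 overlapped there, as did those of Ocln and Cldn15, Cldn15 and F11r, Cldn4 and Marveld2, and Marveld2 and Cldn23. At day 42 the same dam's order began with Cldn3 (109.8), Cldn7 (99.0) and Cldn15 (39.5), and Cldn2 (19.6) came after F11r (24.399) and Ocln (22.8). Cldn3 and Cldn7 overlapped at that age, and so did F11r and Ocln, while Cldn2 (18.1 to 20.9) overlapped F11r (20.3 to 31.6) and lay just under every Ocln library.

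**Figure D1:**
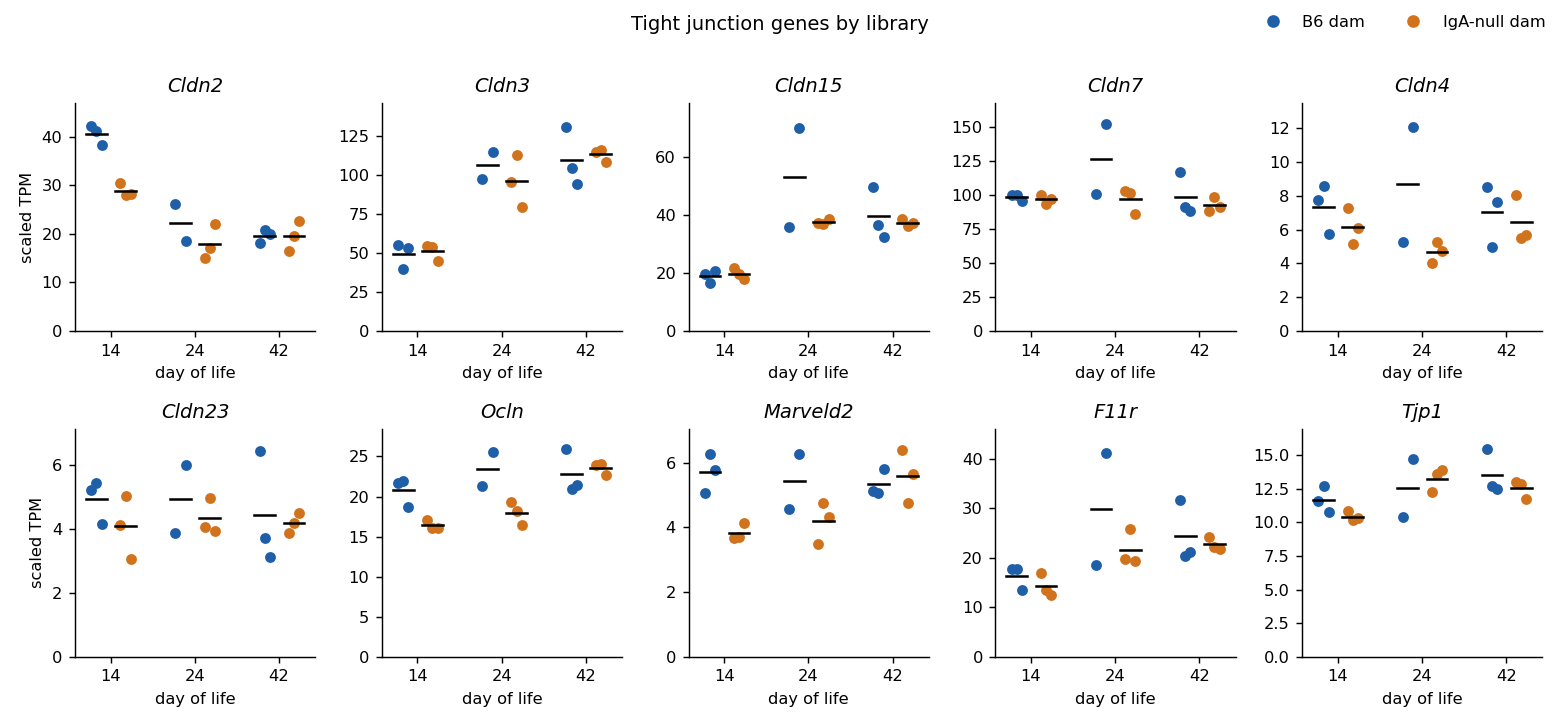
Scaled TPM of each of the 10 genes (vertical axis, from 0) against day of life (horizontal axis), with 1 point per library, the B6 dam in blue, the IgA-null dam in orange and a bar at each group mean. Cldn2 is highest at day 14, Cldn3 and Cldn15 are lowest there under both dams, and Cldn7 has group means between 92.9 and 127.

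From day 14 to the later days the pore former Cldn2 fell while the pore former Cldn15 and the sealing claudin Cldn3 rose, under both dams. With the B6 dam 3 of the 10 members passed an adjusted p of 0.05 from day 14 to 24, as did 14.54% of all tested genes (8.56% higher, 5.98% lower). By day 42 it was again 3 of 10, against 14.07% of all genes (7.4% higher, 6.67% lower). The IgA-null dam groups gave 3 of 10 from day 14 to 24, against 16.89% (9.12% higher, 7.78% lower), and 5 of 10 from day 14 to 42, against 16.58% (8.77% higher, 7.81% lower). No member passed from day 24 to 42, where 0.0282% of genes did under the B6 dam and 2.94% under the IgA-null dam. At an unadjusted p under 0.05 that last step held 0 and 2 members, and limma-voom on the recovered reads also called 0 and 0. Of all 14173 genes, 1008 and 3366 had such an unadjusted p there. The members' median log2 fold change from day 14 to 24 was 0.15 under the B6 dam and 0.11 under the IgA-null dam, where all genes had 0.03 and 0.00. Over the longer step it was 0.06 and 0.34, where all genes had 0.00 and 0.00. Fitted on the 2 groups alone, 5 libraries, none of the 3 members passed from day 14 to 24 under the B6 dam (adjusted p = 0.099 to 0.13). The comparisons of 1 dam from day 14 share their day 14 libraries.

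Cldn2, the cation and water pore, stood at 42.1, 41.1 and 38.3 scaled TPM in the B6 dam libraries of day 14, at 26.1 and 18.4 at day 24, and at 18.1, 20.9 and 19.9 at day 42. With the IgA-null dam the values were 30.4, 28.0 and 28.2 at day 14, 14.96, 17.1 and 21.9 at day 24, and 16.5, 19.6 and 22.6 at day 42. Under each dam every day 14 library lay above every later one. The B6 dam mean went from 40.5 ± 1.95 (SD, n = 3) to 22.3 (n = 2) and 19.6 ± 1.39 (n = 3), a fall of 1.82-fold by day 24 (log2 fold change -0.85, SE 0.17, adjusted p = 0.0051) and 2.06-fold by day 42 (-1.01, SE 0.15, adjusted p = 5e-04). For the IgA-null dam it went from 28.9 ± 1.33 to 17.98 ± 3.57 and 19.6 ± 3.03 (n = 3 each), a fall of 1.61-fold by day 24 (-0.67, SE 0.15, adjusted p = 0.011) and 1.47-fold by day 42 (-0.55, SE 0.15, adjusted p = 0.027). Without B6 dam replicate 2 of day 24 the first fall missed the threshold (-0.61, adjusted p = 0.077). The fall to day 42 under the IgA-null dam missed it without any 1 of the IgA-null libraries of day 14 or without day 42 replicate 1 or 2 (adjusted p = 0.064 to 0.12), after quantile normalisation (0.071) and without the filter (0.05). As deposited, without scaling, all 4 falls of Cldn2 kept their direction and passed (-1.29, -1.24, -2.10 and -1.16).

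Cldn15, the other pore former, was at 19.6, 16.6 and 20.7 scaled TPM at day 14 under the B6 dam, at 35.8 and 70.0 at day 24, and at 49.6, 36.4 and 32.5 at day 42. In the IgA-null dam libraries it was at 21.8, 19.4 and 17.9, then at 37.1, 37.0 and 38.5, and at 38.6, 36.0 and 37.1. Every later library was above every day 14 library. The rise under the B6 dam was 2.79-fold by day 24 (log2 fold change 1.36, SE 0.23, adjusted p = 0.0014) and 2.08-fold by day 42 (1.00, SE 0.20, adjusted p = 0.004). It was 1.90-fold (0.90, SE 0.20, adjusted p = 0.0099) and 1.89-fold (0.89, SE 0.20, adjusted p = 0.0093) under the IgA-null dam. The B6 dam value at day 24 leaned on replicate 2: without replicate 1 the log2 change was 1.83, and without replicate 2 it was 0.89 (adjusted p = 6.8e-05 and 0.017). As deposited, Cldn15 rose under the B6 dam (0.91 and 0.78) and was lower at day 24 (-0.55, adjusted p = 0.013) and not called at day 42 (0.28, adjusted p = 0.23) under the IgA-null dam.

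Cldn3, the sealing claudin, was at 55.0, 39.6 and 52.8 scaled TPM at day 14 under the B6 dam, at 97.5 and 115 at day 24, and at 131, 104 and 94.2 at day 42. With the other dam it was at 54.3, 53.8 and 45.1, then at 95.5, 113 and 79.5, and at 115, 116 and 109. No later library reached down to the day 14 values under either dam. The rise was 2.16-fold by day 24 (log2 fold change 1.10, adjusted p = 0.0016) and 2.24-fold by day 42 (1.15, adjusted p = 0.00036) under the B6 dam. It was 1.88-fold (0.89, adjusted p = 0.0038) and 2.21-fold (1.14, adjusted p = 0.00056) under the IgA-null dam. As deposited, Cldn3 in the IgA-null groups was listed at 82.8 ± 6.81, 56.1 ± 16.1 and 118 ± 10.2 TPM (SD, n = 3 each) at days 14, 24 and 42. On that scale it was lower at day 24 (-0.59, adjusted p = 0.026) and not called at day 42 (0.51, adjusted p = 0.082), and the B6 dam rise to day 24 was not called (0.65, adjusted p = 0.12).

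Cldn7, the most abundant claudin at day 14, did not pass in any age comparison of the scaled values. As deposited, it was lower at days 24 and 42 than at day 14 under the IgA-null dam (-1.49 and -0.69, adjusted p = 4.4e-05 and 0.022). Its B6 dam libraries held 95.5 to 100.4 scaled TPM at day 14, 101 and 152 at day 24, and 88.4 to 117 at day 42. The IgA-null dam libraries held 93.9 to 100.04, 86.4 to 103 and 88.3 to 99.0. Between days 14 and 42 its log2 fold change was -0.01 under the B6 dam (95% interval -0.33 to 0.32) and -0.06 under the IgA-null dam (-0.39 to 0.26). By day 24 under the B6 dam it was 0.33 (adjusted p = 0.23), and 0.62 (adjusted p = 0.016) without replicate 1 of day 24 against 0.03 without replicate 2.

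The low claudins Cldn4 and Cldn23 did not pass either. Cldn4, like Cldn3 counted as sealing, lay between 4.04 and 8.56 scaled TPM in every library but B6 dam replicate 2 of day 24, which held 12.1. Its 4 log2 fold changes from day 14 ran from -0.33 to 0.14, with intervals reaching from -0.87 to 0.74. Those of Cldn23 ran from -0.17 to 0.08, with intervals from -0.62 to 0.53. Changes within the interval of a comparison remain compatible with its data. As deposited, Cldn4 and Cldn23 were lower at day 24 under the IgA-null dam (-1.57 and -1.10, adjusted p = 5.6e-05 and 4.3e-05). On that scale Cldn23 was also lower at day 42 (-0.48, adjusted p = 0.029).

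Ocln and Marveld2 rose from day 14 to 42 under the IgA-null dam, where each passed. Ocln, which encodes occludin, was at 17.1, 16.03 and 16.1 scaled TPM at day 14, at 19.3, 18.1 and 16.4 at day 24, and at 24.0, 24.06 and 22.7 at day 42 with that dam. Marveld2, which encodes tricellulin, was at 3.67, 3.71 and 4.15, then at 3.48, 4.76 and 4.33, and at 6.39, 4.75 and 5.64. For both genes the day 42 libraries lay above all day 14 libraries. Ocln rose 1.44-fold (log2 fold change 0.50, SE 0.11, adjusted p = 0.0076) and Marveld2 1.46-fold (0.44, SE 0.13, adjusted p = 0.033). With the B6 dam Ocln was at 21.7, 21.98 and 18.7 at day 14, at 21.3 and 25.6 at day 24, and at 25.9, 20.9 and 21.5 at day 42. Marveld2 there was at 5.06, 6.27 and 5.79, then at 4.57 and 6.28, and at 5.14, 5.07 and 5.80. The B6 dam ages overlapped for both genes, and their log2 fold changes from day 14 to 42 were 0.12 and -0.08 (adjusted p = 0.53 and 0.76). The sort marker Epcam had means of 262 and 394 scaled TPM at days 14 and 42 under the IgA-null dam. Under the B6 dam they were 387 and 409. The part of this in the changes of Ocln and Marveld2 was not tested.

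As deposited, neither rise was seen (log2 fold change -0.11 for Ocln and -0.085 for Marveld2). The Marveld2 call was also lost without the filter (adjusted p = 0.068), without any 1 IgA-null library of day 14, and without day 42 replicate 1 or 3 (adjusted p = 0.057 to 0.14). Whether the dams differ in the change with age was tested by the F test of the 2 dam-by-day terms, and neither gene passed (adjusted p = 0.46 for Ocln and 0.46 for Marveld2).

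F11r and Tjp1 had higher means at the later days under both dams but did not pass. F11r, the adhesion molecule, held 13.4 to 17.7 scaled TPM at day 14, 18.5 and 41.3 at day 24 and 20.3 to 31.6 at day 42 under the B6 dam. It held 12.5 to 16.9998, 19.3 to 25.8 and 21.8 to 24.16 under the IgA-null dam. The later libraries did not overlap those of day 14 under either dam, and the 4 log2 fold changes were 0.74, 0.54, 0.56 and 0.64 (adjusted p = 0.09, 0.18, 0.13 and 0.091). The first of these was 1.2995 (adjusted p = 0.0029) without B6 dam replicate 1 of day 24 and 0.18 (0.76) without replicate 2. Tjp1, the scaffold, had means of 11.7, 12.6 and 13.5 under the B6 dam and 10.4, 13.3 and 12.5 under the IgA-null dam. Its largest log2 fold change was 0.32 from day 14 to 24 under the IgA-null dam (adjusted p = 0.086). Leaving out either B6 dam library of day 24 left the IgA-null values as they were and lowered their p: F11r and Tjp1 then passed from day 14 to 24 under the IgA-null dam (adjusted p = 0.037 to 0.038 and 0.031), as F11r did from day 14 to 42 (0.023). The latter also passed after quantile normalisation (0.02) and with only the groups compared (0.011), where Tjp1 passed too (0.034). As deposited, both were lower at day 24 with that dam (-0.85 and -1.06).

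**Figure D2:**
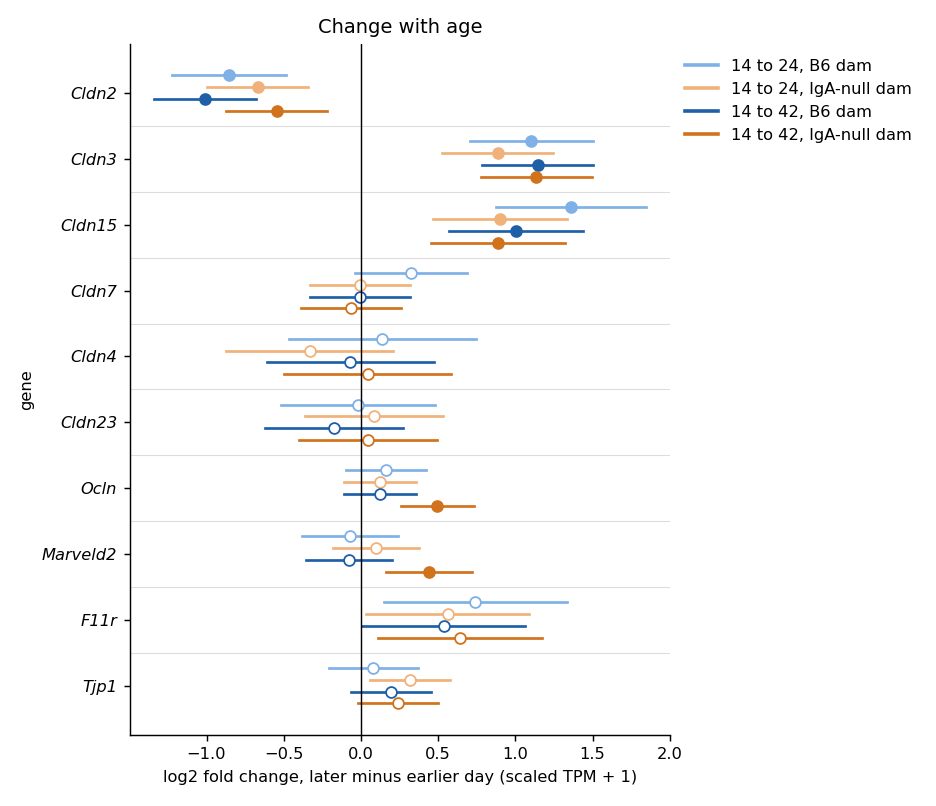
Log2 fold change of each gene (later day minus day 14, horizontal axis) on the scaled TPM + 1 scale for days 24 and 42 under each dam, with lines for 95% intervals, filled points where the adjusted p was under 0.05 and open points elsewhere. Cldn2 lies below 0 and Cldn3 and Cldn15 lie above 0 in all 4 comparisons, and Ocln and Marveld2 are filled in 1.

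Groups without overlap were more numerous than calls. By day 24, 5 of 10 members had no overlap between the ages under the B6 dam and 5 under the IgA-null dam, where 38.71% and 38.1% of all genes had none. By day 42 it was 4 and 7 members, where 34.52% and 48.21% of all genes had none, and from day 24 to 42 it was 0 and 2, where 18.37% and 32.51% had none. Non-overlap alone was thus common over all genes in these comparisons.

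Marker lists of other epithelial cells moved over the same ages. The sum over 17 markers of the neonatal enterocyte was 767 to 1599 scaled TPM at day 14 and 231 to 339 at day 42 under the B6 dam, and 459 to 613 and 228 to 275 under the IgA-null dam. Of 16 tested, 12 fell by day 24 and 13 by day 42 under the B6 dam, and 8 and 9 under the IgA-null dam. Stem and crypt markers (9 genes, where Cldn2 is also known in the adult gut) summed to 600 to 931 and 754 to 899 under the B6 dam, and to 507 to 593 and 933 to 1022 under the IgA-null dam. Of these 9, 1 rose and 1 fell by day 42 under the B6 dam, and 3 rose under the IgA-null dam. Cell cycle genes (10) summed to 145 to 189 and 107 to 126, and to 149 to 167 and 121 to 132, with 3 and 2 lower. Tuft cell markers rose in 7 of 7 under both dams, from 3.02 to 4.63 up to 33.4 to 53.3, and from 12.8 to 16.4 up to 46.9 to 123. Goblet markers rose in 9 of 9 by day 42 under the B6 dam (439 to 712, then 2052 to 2850) and in 1 of 9 under the IgA-null dam (1532 to 2422, then 1933 to 2321). Of 10 enteroendocrine markers 8 rose under the B6 dam (149 to 185, then 389 to 1321), and 2 rose and 1 fell under the IgA-null dam (790 to 962, then 907 to 1575). The sum over adult enterocyte markers was 1301 to 4012 at day 14 and 275 to 1896 at day 42 under the B6 dam, and 893 to 1833 and 273 to 488 under the IgA-null dam. Over the proximal small intestine markers it was 884 to 1987 and 375 to 1865, and 1195 to 2056 and 306 to 513. Single genes of these 2 lists were called both ways by day 42: 3 higher and 2 lower, then 1 and 2, of the adult enterocyte list, and 1 higher and 2 lower, then 1 and 2, of the proximal list. Markers of the distal small intestine (8) summed to 59.2 to 181 and 164 to 393, and to 109 to 147 and 154 to 228. Of 7 tested, 3 and 2 rose by day 42 and 0 fell. Paneth cell markers (9) summed to 1215 to 1962 and 863 to 12721.5, and to 1900 to 3030 and 781 to 1643. The 12721.5 was B6 dam replicate 1. By day 42, 3 rose under the B6 dam and 1 fell under the IgA-null dam. Over all genes 14.07% and 16.58% passed by day 42. The part of these lists in the junction changes was not tested. In RNA from many cells together, fewer cells of a type and less RNA per cell cannot be told apart.

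The makeup of the claudin family can be read without any scaling between libraries, as each gene's share of the summed claudin TPM of its own library. Cldn2 took 17.8% ± 0.796 of it at day 14 under the B6 dam (SD, n = 3), 9.47% and 4.86% in the libraries of day 24, and 7.03% ± 1.42 at day 42. With the IgA-null dam it took 13.6% ± 0.238, 6.93% ± 1.90 and 6.98% ± 1.12. Cldn3 went from 21.6% ± 3.10 to 35.3% and 30.2% and then 38.4% ± 1.02, and from 24.0% ± 1.77 to 36.3% ± 3.32 and 40.3% ± 1.02. The day 14 shares of both genes lay apart from every later share under both dams.

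Cldn15 took 8.35% ± 0.839 at day 14, 13.0% and 18.4% at day 24 and 13.7% ± 0.958 at day 42 under the B6 dam. The IgA-null dam values were 9.25% ± 0.488, 14.36% ± 1.53 and 13.3% ± 0.689. Cldn7, whose scaled level did not pass, made up 43.5% ± 1.86 and 45.7% ± 1.75 of claudin TPM at day 14 and 34.7% ± 0.415 and 33.1% ± 1.33 at day 42. At day 14 the largest share was that of Cldn7 in each of the 6 libraries, and at day 42 it was that of Cldn3 in each of the 6.

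The ratio of the pore formers, Cldn15 over Cldn2, was 0.467, 0.404 and 0.539 at day 14 under the B6 dam, 1.37 and 3.80 at day 24, and 2.74, 1.74 and 1.63 at day 42. It was 0.718, 0.695 and 0.635, then 2.48, 2.17 and 1.76, and 2.33, 1.83 and 1.64 under the IgA-null dam. Every day 14 library held more Cldn2 than Cldn15 and every later library the reverse. The ratio of Cldn3 to Cldn2 was 0.963 to 1.38 and 1.60 to 1.92 at day 14, and 3.63 to 7.21 at the later days. A division of all TPM of a library by 1 number leaves these ratios as they are.

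**Figure D3:**
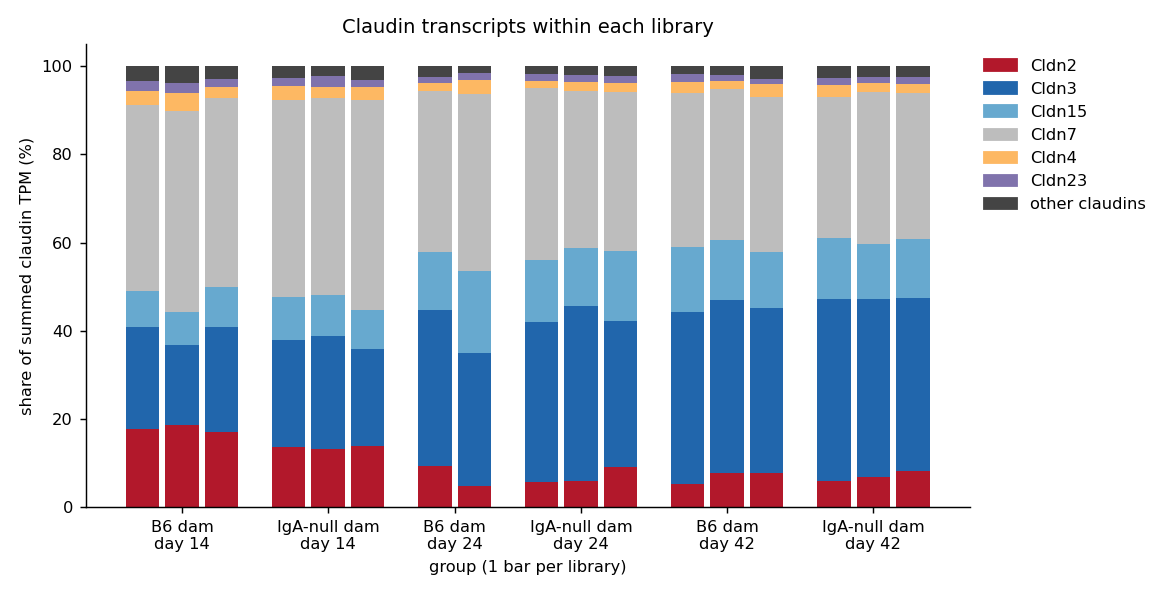
Stacked bars, 1 per library, of the percent of summed claudin TPM (vertical axis, 0 to 100) held by each of the 6 claudins and by the other claudins together, grouped by dam and day. The Cldn2 band is widest in the day 14 bars and the Cldn3 band is widest at day 42.

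Between the dams no member passed at any age. At day 14, 0 of 10 members passed where 3.05% of all genes did, and at days 24 and 42 it was 0 of 10 and 0% of all genes. At an unadjusted p under 0.05 there were 3, 2 and 0 members at days 14, 24 and 42, and limma-voom called 0 at each. Over all 14173 tested genes 2750, 1466 and 213 had an unadjusted p under 0.05 at those days, and limma-voom called 0 at days 24 and 42. In simulated reads the day 14 comparison recovered 3.12% of 1.5-fold and 20% of 2-fold changes, so most went uncalled there. The simulation gave 25 calls and the data 432. With fewer calls the adjusted p asks for a smaller unadjusted p, so these shares need not hold for the data. The members' median log2 difference (IgA-null minus B6) was -0.19, -0.33 and -0.04, and that of all genes -0.02, -0.03 and -0.01. The F test of whether the dam difference changes with age called 0 of 10 members with 2 at an unadjusted p under 0.05, limma-voom called 0, and 0.0212% of all genes passed. Of all 14173 genes, 1431 had an unadjusted p under 0.05 in that test.

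At day 14 the members nearest to a call were Marveld2, Cldn2 and Ocln, all lower under the IgA-null dam in every library. Marveld2 had a log2 difference of -0.47 (95% interval -0.75 to -0.19, adjusted p = 0.066), with means of 5.70 ± 0.610 and 3.84 ± 0.265 scaled TPM (SD, n = 3 each) for the B6 and IgA-null dam. Cldn2 had -0.47 (-0.80 to -0.14, adjusted p = 0.1), with means of 40.5 ± 1.95 and 28.9 ± 1.33. Ocln had -0.32 (-0.55 to -0.09, adjusted p = 0.12), with means of 20.8 ± 1.81 and 16.4 ± 0.596. These 3 of 10 members had no overlap between the dams, where 31.38% of all genes had none. Marveld2 passed when IgA-null dam replicate 1 (adjusted p = 0.035) or either B6 dam library (0.043) of day 24 was left out, and Cldn2 passed when the fit held the 2 groups alone (0.031). As deposited the 3 differences were -0.09, -0.03 and 0.12. Cldn3 (0.06, adjusted p = 0.87) and Cldn15 (0.05, adjusted p = 0.92) had intervals on both sides of 0.

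Cell type markers differed between the dams at that age. Goblet cell markers summed to 439 to 712 scaled TPM under the B6 dam and 1532 to 2422 under the IgA-null dam, and 8 of 9 passed as higher. Enteroendocrine markers summed to 149 to 185 and 790 to 962, and 10 of 10 passed as higher. Neonatal enterocyte markers summed to 767 to 1599 and 459 to 613, and 5 of 16 passed as lower. Over all tested genes 3.05% passed. The sort marker Epcam was at 377 to 399 scaled TPM under the B6 dam and at 244 to 272 under the IgA-null dam. The part of these markers in the 3 member differences was not tested.

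At day 24, where the B6 dam had 2 libraries, Cldn4 had a log2 difference of -0.68 (95% interval -1.29 to -0.08, adjusted p = 0.44) and Ocln of -0.36 (-0.62 to -0.10, adjusted p = 0.36). Without B6 dam replicate 1 these were -1.21 and -0.49, and without replicate 2 they were -0.15 and -0.24. Cldn15 turned its sign between these fits (-0.88 and 0.06), as did F11r (-0.91 and 0.20), Tjp1 (-0.14 and 0.32) and Cldn23 (-0.40 and 0.12). No overlap was found for 2 of 10 members, where 15.86% of all genes had none. At day 42 the differences of all 10 members lay between -0.10 and 0.06, with intervals from -0.64 (Cldn4) to 0.46 (F11r), and all overlapped, where 8.16% of all genes did not.

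**Figure D4:**
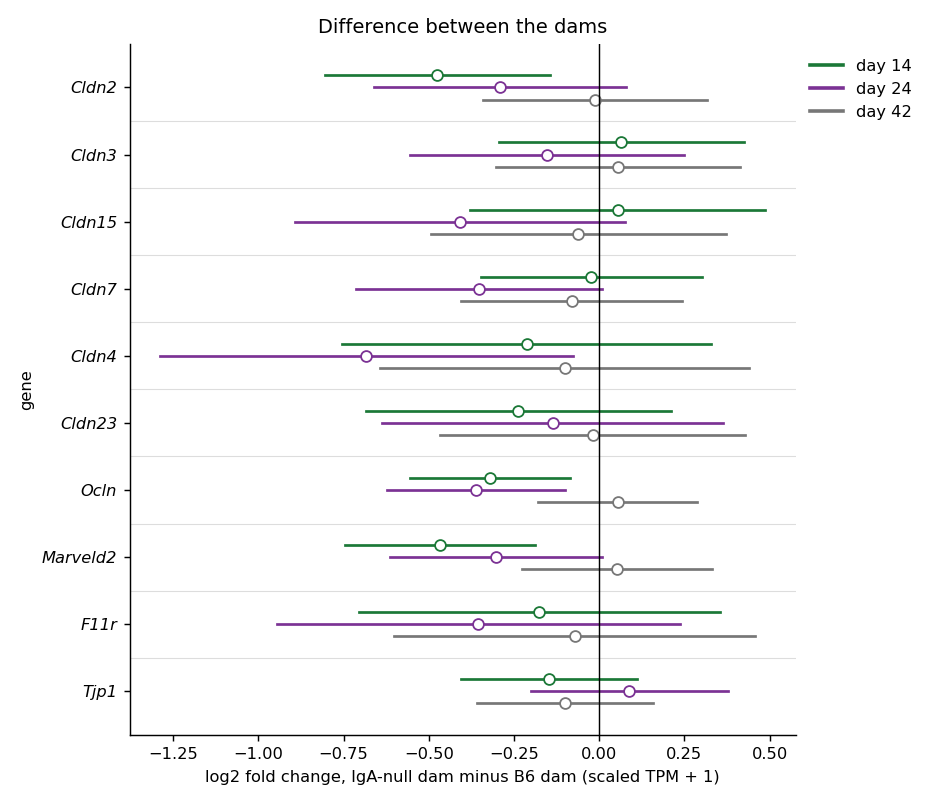
Log2 difference of each gene between the dams (IgA-null minus B6, horizontal axis) on the scaled TPM + 1 scale at days 14, 24 and 42, with lines for 95% intervals and open points because no adjusted p was under 0.05. The day 42 points lie between -0.10 and 0.06, and Cldn4 at day 24 has the lowest value (-0.68).

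Of the 22 other claudins in the table only Cldn8 and Cldn12 passed the filter. Cldn8, a sealing claudin best known from the distal gut and kidney, fell in each comparison from day 14. Its means were 1.73, 0.214 and 0.255 scaled TPM at days 14, 24 and 42 under the B6 dam and 1.14, 0.217 and 0.495 under the IgA-null dam. The filter asked for a scaled TPM of 1 in 2 libraries, and the later means lay under 1. Cldn8 thus entered the test through its day 14 libraries, which favoured a fall, and its values lay near the floor. The log2 fold changes were -1.15 and -1.10 (adjusted p = 0.00063 and 0.00024), and -0.81 and -0.52 (adjusted p = 0.0037 and 0.032). The last was lost after quantile normalisation (adjusted p = 0.064) and without any 1 of that dam's libraries of day 14 or 42 (adjusted p = 0.05 to 0.1). Cldn12 rose from day 14 to 42 under the IgA-null dam (0.47, adjusted p = 0.021), but not as deposited (-0.05).

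Among 23 tested genes for other tight junction proteins, 2 rose and 3 fell from day 14 to 24 under the B6 dam, and 4 rose and 1 fell under the IgA-null dam. By day 42, 2 rose under the B6 dam, and 2 rose and 1 fell under the IgA-null dam. Over all tested genes 14.54%, 16.89%, 14.07% and 16.58% passed in that order. The list's median log2 fold changes were 0.18, 0.30, 0.02 and 0.07 in the same order. Lsr, the receptor that brings Marveld2 to the corners between cells, had means of 20.6, 34.4 and 32.0 scaled TPM under the B6 dam and 22.8, 30.6 and 34.7 under the IgA-null dam. It rose by day 42 under both (0.61 and 0.59, adjusted p = 0.0032 and 0.0047). Marveld3, the relative of Ocln and Marveld2, rose by day 24 (0.55 and 0.48, adjusted p = 0.016 and 0.018), and Ildr1, of the Lsr family, rose from day 24 to 42 under the IgA-null dam (0.84, adjusted p = 0.012). Amot, a scaffold of the junction's polarity complex, fell by day 24 (-0.75 and -0.43, adjusted p = 0.0052 and 0.043). The IgA-null call of Amot was kept in 7 of 17 fits that left out 1 library. It was lost with no filter (adjusted p = 0.082), and with only the groups compared both Amot calls were lost (0.14 and 0.071). Cgnl1 fell by day 24 under the B6 dam (-0.53, adjusted p = 0.035), but was not called after quantile normalisation (0.073). Tjap1 fell by day 42 under the IgA-null dam (-0.51, adjusted p = 0.044), kept in 7 of 17 fits that left out 1 library. As deposited the rises of Lsr and Marveld3 were not called, and Marveld3 was lower under the IgA-null dam (-0.87).

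Of 20 tested adherens junction and desmosome genes, 3 rose by day 24 under the B6 dam and 4 under the IgA-null dam, and by day 42 3 rose and 1 fell and 4 rose and 1 fell. Over all tested genes 14.54%, 16.89%, 14.07% and 16.58% passed in these comparisons, and 3.05% between the dams at day 14. The list's medians were 0.12, 0.25, 0.11 and 0.20. The desmosome plaque gene Pkp3 rose by day 24 (0.68 and 0.84, adjusted p = 0.025 and 0.0047), and the desmosomal cadherin Dsg2 rose by day 42 (0.57 and 0.68, adjusted p = 0.036 and 0.013). Cdh1 (E-cadherin) rose by day 42 under the IgA-null dam (0.47, adjusted p = 0.0069). The largest called change in that comparison was a fall, of Ctnnd1 (-0.96, adjusted p = 0.023). It was kept in 12 of 17 fits that left out 1 library and lost with no filter (adjusted p = 0.055). Ctnnb1 (beta-catenin) was the 1 gene of the list to differ between the dams, at day 14 (63.5 and 43.2 scaled TPM, -0.55, adjusted p = 0.035). The Ctnnb1 difference was kept in 8 of 17 fits that left out 1 library, and was lost without any 1 IgA-null library of day 14 or B6 dam replicate 1 or 2 of that day (adjusted p = 0.081 to 0.14) and with the replicate block (0.067). Ctnnb1 also fell by day 42 under the B6 dam (-0.42, adjusted p = 0.038), kept in 8 of 17 such fits. As deposited the calls of Ctnnb1 (-0.10 between the dams, -0.65 by day 42) and Dsg2 (0.34 and 0.08) were lost. That of Pkp3 under the B6 dam (0.26) was lost too, and Cdh1 (-0.16) and the IgA-null value of Pkp3 (-0.45) turned negative.

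Of 23 tested regulators of junctions, 3 rose and none fell by day 24 under each dam, and 3 rose and 0 or 1 fell by day 42. The shares over all tested genes were 14.54% and 16.89% by day 24, and 14.07% and 16.58% by day 42. The regulators' medians were 0.08, 0.28, 0.07 and 0.12. Vdr, the vitamin D receptor and a known regulator of Cldn2 transcription, had means of 17.2, 32.2 and 35.6 scaled TPM under the B6 dam and 17.5, 31.0 and 33.5 under the IgA-null dam. It rose in all 4 comparisons from day 14 (0.88, 1.03, 0.79 and 0.90, adjusted p = 0.0027, 0.00026, 0.0032 and 0.001). Cldn2 fell in these 4 comparisons, and the part of Vdr in its change was not tested. St14, the membrane protease matriptase, rose in the same 4 (0.72, 0.41, 0.58 and 0.68), and Arhgef2, a junction-bound activator of RhoA, in 3 of them (1.38, 1.03 and 1.09). Rab13 was the 1 regulator that fell, by day 42 under the IgA-null dam (-0.84, adjusted p = 0.005). Its call was kept in 17 of 17 fits that left out 1 library. Prss8, the protease prostasin that acts with St14, was lower under the IgA-null dam at day 14 (5.57 and 3.13 scaled TPM, -0.68, adjusted p = 0.017). The St14 call by day 42 under the B6 dam (adjusted p = 0.048) was kept in 3 of 17 fits that left out 1 library, and was lost with a pseudocount of 5, with no filter and with the replicate block. As deposited Vdr and St14 were lower at day 24 under the IgA-null dam (-0.65 and -0.83). On that scale the other 3 rises of St14 were not called (adjusted p = 0.42, 0.61 and 0.73), nor those of Vdr by day 24 under the B6 dam (0.27) and by day 42 under the IgA-null dam (0.29). Arhgef2 under the IgA-null dam (adjusted p = 1) and the Prss8 difference (-0.33) were not called either.

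**Figure D5:**
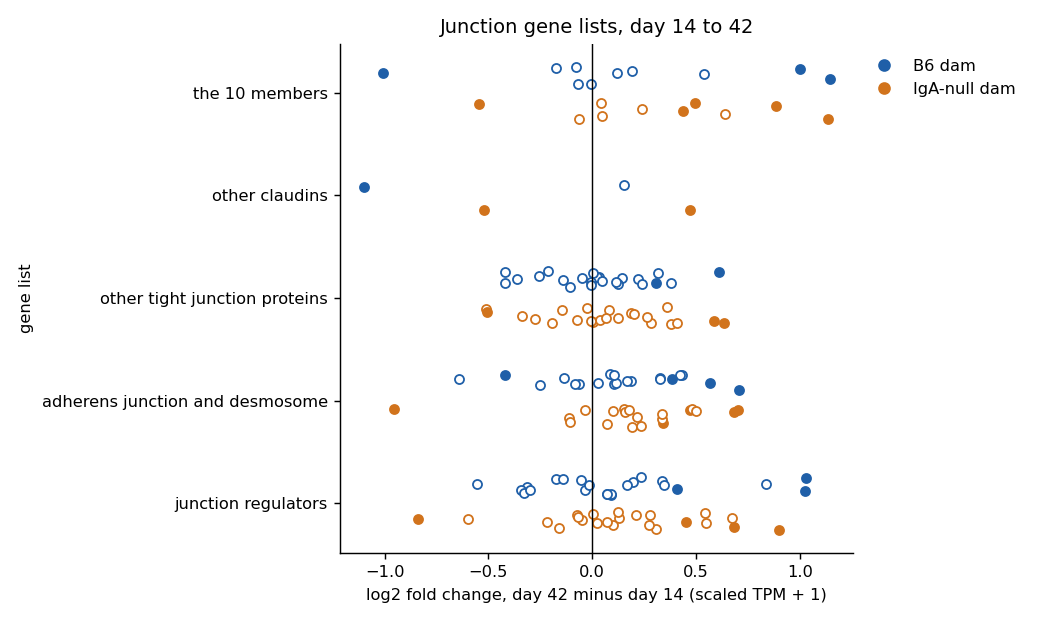
Log2 fold change from day 14 to 42 (horizontal axis, scaled TPM + 1 scale) of every tested gene in 5 lists (rows), the 10 members among them, under each dam, with filled points where the adjusted p was under 0.05. Of the 10 members 3 are filled under the B6 dam and 5 under the IgA-null dam, and in the 3 largest lists most points are open.

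The patterns of the members across the 17 libraries were compared by Pearson's r of log2 values, as a description over libraries that share groups and preparation. Cldn3 and Cldn15 varied together (r = 0.916), and both ran against Cldn2 (r = -0.858 and -0.813). F11r was close to Cldn15 (0.883) and Tjp1 (0.854), and Ocln to Marveld2 (0.689). Outside the family, Cldn2 was most like Pde7a (0.961), E2f8 (0.945) and Pofut1 (0.945), and Cldn3 like Prss32, Rbp7 and Fam120a (0.976 each). The genes most like Cldn15 were B4galt1 (0.974), Cnnm4 (0.973) and Neurl3 (0.971), and those most like F11r were Ube2j1 (0.977), Slc26a2 (0.972) and Sc5d (0.971). Cldn23, the member with the fewest reads, reached 0.816 with its nearest gene, Manba.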

How the data were processed

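Sorted cells gave 17 libraries, made by SMART-seq v4 Ultra Low Input amplification and Nextera XT, per the labels' protocols. The deposited values are TPM by gene symbol, each library summing to the same total over all genes. The submitters' processing notes name Bowtie2, Subread, DESeq2 and the build mm10. Their versions and settings are not given in the sources used here.

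Each TPM was divided by its library's median-of-ratios size factor (from 16088 genes). The 14173 genes that reached a scaled TPM of 1 in 2 or more libraries were tested by limma 3.58.1 (R 4.3.3) on log2(scaled TPM + 1). All 17 libraries and 6 groups stood in 1 fit whose prior variance followed the mean intensity. Log2 fold changes are on that scale, which understates changes of low genes, while values written as N-fold are ratios of group means. A call is a Benjamini-Hochberg adjusted p under 0.05 over all tested genes, and 95% intervals are limma's. Contrasts were taken between dams at an age and between ages under a dam, and a moderated F test covered the 2 dam-by-day terms.

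Deposited TPM times the exon length in GENCODE M21 gave whole reads for 93.6% of values (within 0.01 reads or a relative 0.0001), over 49618 symbols with 1 length, and for every member in every library. These reads gave each library's depth, and limma-voom on them (12631 genes) was added after seeing the data. They are PCR products without molecular identifiers. The other alternatives were TPM as deposited, quantile normalisation, other pseudocounts (0.1 and 5), no filter, a minimum TPM of 5, a replicate block, only the groups compared, and each library left out. The fit was tested on simulated reads with a dispersion of 0.05. Between the dams at day 14 it recovered 20% of 2-fold and 3.12% of 1.5-fold changes. From day 14 to 24 under the B6 dam it recovered 13.3% and 0%. From day 14 to 42 under the IgA-null dam it recovered 43.4% and 2.2%. Most changes of these sizes thus went uncalled in that setting. The simulations gave 25, 15 and 48 calls in these comparisons, where the data gave 432, 2061 and 2350. A call thus needed a smaller unadjusted p in the simulations, and the shares recovered need not hold for the data. Reads, sequences and plots were handled in Python 3.11.15 with numpy 2.4.6, pandas 2.3.3 and matplotlib 3.10.9.

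The members and lists were chosen with earlier results of these data known. Candidates for naming were all 10 members and, for each, the 3 tested genes with the highest correlation, without predicted genes. From each other list and comparison they were up to 4 called genes with the largest change (or the 2 with the smallest p). Not every candidate is named in the text. No library was left out of the values in the text unless it is said.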

Additional observations from a re-analysis of the deposited data

How the results depend on the processing

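The 3 members called under the B6 dam from day 14 to 42 were 3 with each library left out. Leaving out 1 library gave 0 to 1 called members between the dams at day 14, 0 at day 24 and 0 at day 42. It gave 2 to 5 from day 14 to 24, 0 to 2 from day 24 to 42 and 3 to 3 from day 14 to 42 under the B6 dam, and 3 to 5, 0 to 1 and 3 to 6 under the IgA-null dam, and 0 in the F test. Only the groups compared gave 1 member (Cldn2) between the dams at day 14 and 0 from day 14 to 24 under the B6 dam, a fit of 5 libraries, and 7 against 5 from day 14 to 42 under the IgA-null dam (F11r and Tjp1 added). No filter gave 3 from day 14 to 42 under the IgA-null dam. Quantile normalisation gave 2 (Cldn3 and Ocln) from day 24 to 42 with that dam. The TPM as deposited gave 10 from day 14 to 24, 10 from day 24 to 42 and 3 from day 14 to 42 with that dam, and 1 (Cldn15, adjusted p = 0.039) in the F test. Beyond the deposited scale, which leaves in the shift of all genes, the cause was not tested.

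As deposited, log2 fold changes from day 14 to 24 under the IgA-null dam turned negative for Amotl2 (-0.35), Cldn15 (-0.55), Cldn23 (-1.10), Cldn3 (-0.59), F11r (-0.85), Jup (-1.03), Marveld2 (-1.09), Marveld3 (-0.87), Nectin2 (-0.87), Ocln (-1.29), Pkp2 (-0.85), Pkp3 (-0.45), St14 (-0.83), Tjp1 (-1.06), Tjp3 (-1.003) and Vdr (-0.65). From day 14 to 42 this held for Cdh1 (-0.16), Cldn12 (-0.050), Cldn23 (-0.48), Lsr (-0.023), Marveld2 (-0.085), Ocln (-0.11) and Prss8 (-0.054), and for Cldn4 (-0.52) and Tjp1 (-0.35), not called on either scale, and from day 24 to 42 Cldn15 (0.83), Cldn23 (0.62), Cldn7 (0.79) and Tjp1 (0.71) turned positive. Of 49 calls of other candidate genes, 21 were kept with each library left out, 14 as deposited, 36 with the replicate block, 35 with no filter and 29 with only the groups compared. Among the calls lost with the block were Ctnnb1 between the dams at day 14 and, under the B6 dam, Pkp3 by day 24 and Dsg2 and St14 by day 42. Over members and other candidate genes, 3178 of the values under alternatives kept direction and side of the threshold, 267 lost the call and 30 gained one. The sign turned in 27 where a call stood on either side and in 102 where neither value was called.

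Same-numbered replicates did not deviate together in the median (40 pairs, median r = -0.0179, range -0.647 to 0.274). Pairs with other numbers had a median r of -0.00694 (80 pairs, range -0.392 to 0.647). Deviations within a group sum to 0, so this check cannot exclude a shared litter or preparation. With the replicate block the member counts were 0, 0 and 0 between the dams, 3, 0 and 3 under the B6 dam, 3, 0 and 5 under the IgA-null dam and 0 in the F test. The block gave 237 genes at day 14 against 432, 136 against 417 from day 24 to 42 under the IgA-null dam, and 0 against 3 in the F test.

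Counts over all genes also moved by over 1.5 times. Between the dams at day 14, 432 became 1307 as deposited, 269 with no filter, 698 with only the groups compared and 78 to 1046 with a library left out. At day 24, 0 became 4 as deposited, 24 with no filter and 0 to 31 with a library left out, and at day 42 0 became 4 with no filter. By day 24, 2061 (B6 dam) became 1297 as deposited, 135 with only the groups compared and 940 to 3568 with a library left out, and 2394 (IgA-null dam) became 12627 as deposited, 1587 at a TPM of at least 5 and 1151 to 3274. By day 42, 1994 became 1213 at a TPM of at least 5 and 1321 to 2560, and 2350 became 6125 as deposited, 1493 at a TPM of at least 5, 4373 with only the groups compared and 1349 to 3028. From day 24 to 42, 4 became 18 with no filter, 1 at a TPM of at least 5, 0 with only the groups compared and 2 to 874, and 417 became 7434 as deposited, 660 after quantile normalisation, 187 with no filter, 1084 with only the groups compared and 41 to 1601. The F test's 3 became 264 as deposited, 14 after quantile normalisation, 20 and 17 with pseudocounts of 0.1 and 5, 34 with no filter, 28 at a TPM of at least 5, 6 by limma-voom and 0 to 129.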
